A study of Mus musculus with 5 samples.

Results

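Paraspeckles are nuclear bodies built on a long noncoding RNA, Neat1, and on RNA-binding proteins that coat it. The 7 genes described here encode parts of these bodies or work beside them in the nucleus: Sfpq, Nono and Pspc1, which are the 3 mouse members of the DBHS (Drosophila behaviour and human splicing) protein family, Rbm14 and Matr3, and the noncoding RNAs Neat1 and Malat1. They were chosen by name, for their known roles, out of 54809 annotated genes in the deposited files, with earlier results of these data known. All 7 had enough reads to be among the 14935 genes tested.

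N2a mouse neuroblastoma cells were transfected with a control siRNA (siCtrl, n = 2 libraries) or with one that targets Ewsr1 (siEwsr1, n = 3 libraries), in order to profile RNA after knockdown of this RNA-binding protein. Both groups received 2 pulses of lipid transfection of 50000 cells and were harvested after 24 hours, and the labels give the siRNA concentration as 100 µM, which is unusually high and may be a slip of unit. Libraries came from 2 µg of total RNA by a strand-specific protocol that depletes ribosomal RNA and so also keeps noncoding RNA without a poly(A) tail. Nothing states that the replicates were separate cultures, so the p-values reflect the spread among libraries, possibly a technical one, and in bulk RNA fewer cells with a transcript and less of it per cell cannot be told apart.

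The DBHS proteins form dimers with each other through a shared core and act in transcription, splicing and nuclear retention of RNA as well as in paraspeckles. Sfpq and Nono are essential for paraspeckles, whereas Pspc1 is a marker protein of these bodies. The Neat1 gene gives a short polyadenylated transcript and a long one, and the long one is the scaffold. Malat1, the neighbouring gene, gives an abundant RNA of nuclear speckles, the bodies enriched in splicing factors. EWSR1 has itself been found in paraspeckles of human cells.

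The long transcripts of Neat1 and Malat1 share the structure of their 3′ ends, which is the feature that sets both apart from most noncoding RNAs. Neither end is polyadenylated in the usual way: RNase P cuts the precursor, and U-rich motifs fold onto an A-rich tract to form a triple helix that protects the end. The sequences below are 120-base windows of the GENCODE M21 transcripts on GRCm38, 5′ to 3′, written as DNA from the minus strand of chromosome 19, and each ends with its A-rich tract. Neat1-201 is shown from chr19:5824708-5824827 and Malat1-201 from chr19:5795982-5796101. Capitals mark the 3 runs of at least 10 bases that this end of Neat1-201 shares with the last 500 bases of Malat1-201: TTTCTTTTCCTGA (13 bases), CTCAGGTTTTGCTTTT (16 bases) and AAAAAGCAAAA (11 bases). The first and second runs hold the U-rich motifs and the third run is the A-rich tract.
Neat1-201: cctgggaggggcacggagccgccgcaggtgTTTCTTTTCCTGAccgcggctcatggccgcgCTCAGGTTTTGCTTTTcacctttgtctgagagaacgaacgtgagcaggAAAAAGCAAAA
Malat1-201: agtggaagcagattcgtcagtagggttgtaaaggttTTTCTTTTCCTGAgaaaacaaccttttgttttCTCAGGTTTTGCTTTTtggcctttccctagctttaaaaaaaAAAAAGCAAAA

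In Neat1-201 the tract ends the annotated transcript, with 0 bases after it, whereas the annotation of Malat1-201 runs on for 292 bases. All 3 runs were found in this order, on the transcript strand and within 120 bases, in 2 of 141767 annotated transcripts (0.00141%), which were these 2. The runs were taken from these RNAs, so the count is a description and not a test.

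The short transcript of Neat1 ends differently, with a polyadenylation signal. The next sequence gives its last 60 bases, written as above, with the signal AATAAA in capitals.
Neat1-202: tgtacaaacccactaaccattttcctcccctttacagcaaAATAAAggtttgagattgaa

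Neat1-201 is 20771 bases long in 1 exon, and Neat1-202 is 3004 bases long in 2 exons, or 14.5% of the longer one. Both begin at nearly the same base and overlap, and GENCODE M21 also lists shorter Neat1 transcripts of 1030 and 711 bases. Every Neat1 level below is a value for the whole gene and does not separate its transcripts. The Malat1 transcript that spans its gene is 6983 bases long.

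Ewsr1, the targeted gene (chromosome 11, 5069689 to 5099266, minus strand), checked the labels. The siCtrl libraries held 71.7 and 72.3 RPKM, reads scaled to exonic length and counted reads, and the siEwsr1 libraries 35.7, 36.3 and 37.6 RPKM. Each siEwsr1 library held about the same, lower amount, a log2 fold change of -0.96 (limma, SE 0.08, adjusted p = 8.50e-04, Benjamini-Hochberg over all tested genes). The libraries held 15045774 to 21339459 counted reads. The reads of mitochondrial ribosomal RNA, a sign of how well depletion worked, made up 0.799% to 2.42% of them and were lowest in siCtrl replicate 2. Of 17 neuroblastoma and neuron markers, 14 averaged at least 1 RPKM, with a summed level of 1100 to 1115 RPKM in siCtrl and 1198 to 1312 RPKM in siEwsr1, while of the defining genes Nefl and Nefm were near 0. Of the 9 fibroblast and mural markers, 2 averaged at least 1 RPKM, Fbln1 (28.8 RPKM) and Acta2 (1.62 RPKM), and Col3a1 and Lum were at 0. The sum, most of it Fbln1, was 36.7 to 36.9 RPKM in siCtrl and 24.6 to 31.4 RPKM in siEwsr1. No marker of immune, glial, endothelial or epithelial cells averaged 1 RPKM. The part of these shifts in the results was not tested.

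After Ewsr1 knockdown, Pspc1 rose and Neat1 fell, by moderate amounts, while Sfpq, Nono, Rbm14, Matr3 and Malat1 did not pass the test. Thus 2 of the 7 genes were called at an adjusted p under 0.05, 1 in each direction, against a background of 775 of 14935 genes (5.19%), with 359 higher (2.4%) and 416 lower (2.79%). The siEwsr1 and siCtrl ranges did not overlap in 3 of the 7, namely Pspc1 and Nono above and Neat1 below, where 39.9% of all tested genes had ranges that did not overlap (18.6% with siEwsr1 above and 21.3% below). The median log2 fold change was 0.06 over the 7 genes and -0.01 over all tested genes. With so few genes these counts say little, and the values of single genes carry the description.

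**Figure D1:**
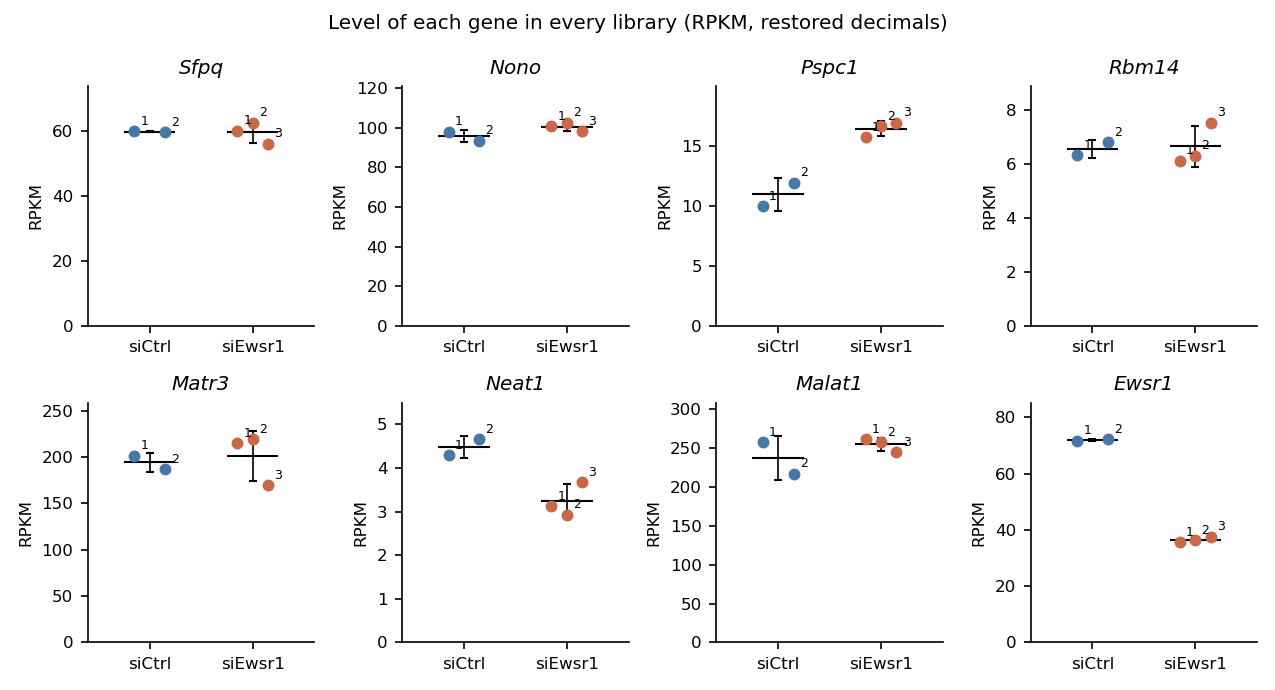
Level of each gene in every library in RPKM, on axes that start at 0. Points are libraries, numbered by replicate (blue siCtrl, n = 2, orange siEwsr1, n = 3), lines are means and bars are SD. Pspc1 stood at 15.7 to 16.9 RPKM in siEwsr1 above 9.99 and 11.9 RPKM in siCtrl, and Neat1 at 2.93 to 3.68 RPKM below 4.29 and 4.66 RPKM.

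The DBHS genes differed in level, and Pspc1 was the only one of them that was called. Pspc1 (chromosome 14, 56720710 to 56778316, minus strand) had 9.99 and 11.9 RPKM in siCtrl and 15.7, 16.6 and 16.9 RPKM in siEwsr1. All 3 siEwsr1 libraries lay close together and above both controls, which themselves were 0.24 apart on the log2 scale. Mean levels were 10.95 ± 1.36 RPKM in siCtrl (SD, n = 2) and 16.4 ± 0.630 RPKM in siEwsr1 (SD, n = 3), a rise of 49.85%. On the log2 scale the change was 0.60 (SE 0.10, 95% interval 0.38 to 0.82, adjusted p = 0.0104, limma), and 9.41% of all tested genes changed by at least as much. These levels rest on 903 to 2033 reads a library, and Pspc1 overlaps no other annotated gene.

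The Pspc1 call depended on the libraries used. It was lost when siCtrl replicate 1 was left out (0.49, adjusted p = 0.197, limma), when siCtrl replicate 2 was left out (0.73, adjusted p = 0.0925) and when siEwsr1 replicate 1 was left out (0.64, adjusted p = 0.0564), and it was kept in the other 2 such fits.

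Sfpq, a splicing factor that holds the long Neat1 transcript in paraspeckles (chromosome 4, 127021324 to 127037013, plus strand), had 60.1 and 59.7 RPKM in siCtrl and 60.2, 62.7 and 56.2 RPKM in siEwsr1. The control values lay within the siEwsr1 range. Its means of 59.9 ± 0.251 RPKM (SD, n = 2) and 59.7 ± 3.29 RPKM (SD, n = 3) gave a log2 fold change of 0.01 (SE 0.09, 95% interval -0.19 to 0.21, adjusted p = 0.969, limma). Its sign changed with the scaling, to -0.01 with library totals only. Sfpq shares bases on the same strand with Gm12940, a noncoding transcript at 7.60 to 10.5 RPKM, and how reads in the shared bases were counted is not given in the sources used here.

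Nono, which pairs with Sfpq in most cells (chromosome X, 101429318 to 101448591, plus strand), had 98.1 and 93.6 RPKM in siCtrl and 100.7, 102.6 and 98.2 RPKM in siEwsr1. The siEwsr1 libraries were all higher, but siEwsr1 replicate 3 and siCtrl replicate 1 were nearly equal. The log2 fold change of 0.08 (SE 0.08, 95% interval -0.10 to 0.27, adjusted p = 0.598, limma) did not pass the test. For Sfpq and Nono the intervals leave room for changes of up to 0.21 and 0.27 on the log2 scale, below the lower bound of 0.38 for Pspc1.

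**Figure D2:**
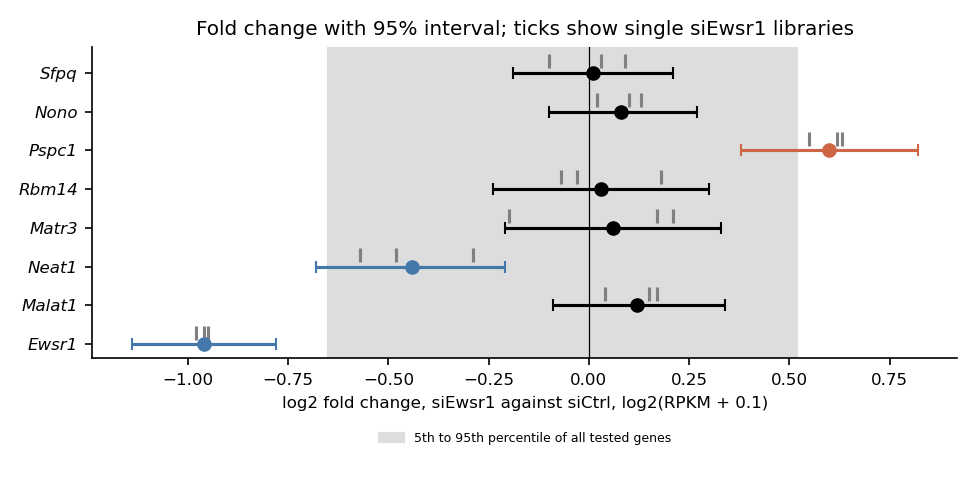
Log2 fold change (siEwsr1 against siCtrl, on log2(RPKM + 0.1)) of the 7 genes and Ewsr1, with 95% intervals as bars. Grey ticks are single siEwsr1 libraries against the siCtrl mean, orange and blue mark genes called higher and lower, and the grey band spans -0.65 to 0.52, the 5th to 95th percentile of all tested genes. Pspc1 at 0.60 lies beyond the band and Neat1 at -0.44 within it.

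Levels within the family were then set against each other in each library, which does not depend on library scaling. The log2 ratio of Pspc1 to Sfpq was -2.59 and -2.33 in siCtrl and -1.94, -1.92 and -1.73 in siEwsr1. Every siEwsr1 library had relatively more Pspc1, and the group means differed by 0.59 (exact permutation test over libraries, two-sided, p = 0.1, adjusted p = 0.175 over 7 ratios and shares). This p of 0.1 is the smallest that 2 against 3 libraries allow. The ratio of Pspc1 to Nono moved by 0.52 with the same p, whereas Nono to Sfpq moved by 0.08 (exact permutation p = 0.2, adjusted p = 0.233).

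Pspc1 made up 5.94% and 7.21% of the summed RPKM of the 3 DBHS genes in siCtrl and 8.89%, 9.14% and 9.88% in siEwsr1. Pspc1 was thus the minor member in each library, with a larger share in every siEwsr1 library than in either control. The mean share went from 6.58% to 9.30% (exact permutation p = 0.1). The share of Sfpq went from 35.9% to 33.8% (exact permutation p = 0.1) and that of Nono from 57.5% to 56.9% (exact permutation p = 0.5). With adjustment over the 7 ratios and shares, none passed 0.05, nor could any in this design.

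**Figure D3:**
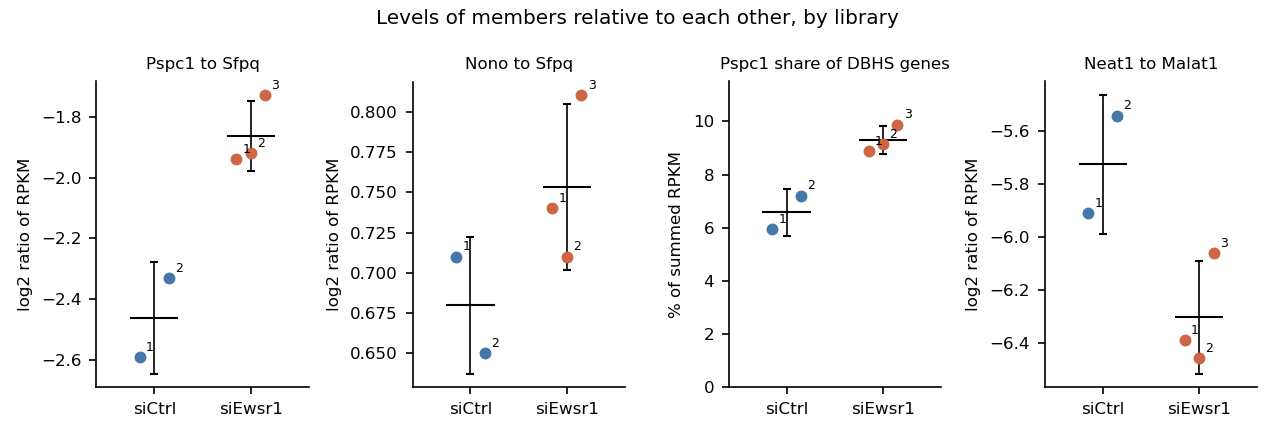
Log2 ratios of RPKM between pairs of genes and the share of Pspc1 in the summed RPKM of Sfpq, Nono and Pspc1, in every library. Points are libraries numbered by replicate, lines are means and bars are SD, and the ratio axes do not start at 0. The Pspc1 share was 5.94% and 7.21% in siCtrl and 8.89% to 9.88% in siEwsr1, and the Nono to Sfpq ratios of the groups lie close together.

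Rbm14, a coactivator and splicing regulator with a prion-like domain that paraspeckles need (chromosome 19, 4800569 to 4811634, minus strand), had 6.33 and 6.79 RPKM in siCtrl and 6.12, 6.30 and 7.52 RPKM in siEwsr1. The siEwsr1 values lay on both sides of the controls. The log2 fold change was 0.03 (SE 0.12, 95% interval -0.24 to 0.30, adjusted p = 0.918, limma). Counting alone gives an error of up to 5.27% a library here. Gm21992, an annotated read-through gene over the same exons and strand, held 10 to 28 reads a library, and how shared reads were counted is not given in the sources used here.

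Matr3 encodes matrin 3, a protein of the nuclear matrix that binds DNA and RNA and acts in splicing (chromosome 18, 35562138 to 35593835, plus strand). It had 201.5 and 186.9 RPKM in siCtrl and 214.6, 219.3 and 169.8 RPKM in siEwsr1. Replicates 1 and 2 of siEwsr1 were above both controls and replicate 3 was below both. The log2 fold change was 0.06 (SE 0.12, 95% interval -0.21 to 0.33, adjusted p = 0.825, limma), and it passed in 1 of the 5 fits that leave out a library. Without siEwsr1 replicate 3 it was 0.19 (adjusted p = 0.0301, limma), and in the other 4 such fits it lay between 0.00 and 0.13 (adjusted p of 0.767 to 1.0). The RPKM of Matr3 match an exonic length of 4472 bases and not the 10158 bases of GENCODE M21, so its level against other genes depends on the length the authors used, while its fold change does not. On the same strand its span overlaps Gm36989 (195 to 473 reads a library) and the protein-coding Gm28285, for which no value was used. How any shared reads were counted is not given in the sources used here.

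Neat1 (chromosome 19, 5824708 to 5845478, minus strand) was the lowest of the 7 genes per length, taken over all 20771 bases of the gene. Its level was 4.29 and 4.66 RPKM in siCtrl and 3.12, 2.93 and 3.68 RPKM in siEwsr1. All siEwsr1 libraries lay below both controls, with siEwsr1 replicate 3 nearest to them. Mean levels were 4.48 ± 0.259 RPKM in siCtrl (SD, n = 2) and 3.24 ± 0.389 RPKM in siEwsr1 (SD, n = 3), a change of -27.6%, from 975 to 1676 reads a library. On the log2 scale Neat1 fell by 0.44 (SE 0.11, 95% interval -0.68 to -0.21, adjusted p = 0.0401, limma), and 17.7% of all tested genes changed by at least as much.

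The Neat1 call was close to the threshold and was made in 9 of 17 other settings. It rests on a variance trend on mean reads, chosen after the results under 2 trends had been seen. It was lost with the variance trend fitted on mean RPKM and not on mean reads (adjusted p = 0.135, limma), with a pseudocount of 1 (adjusted p = 0.0906, limma), and when siCtrl replicate 1 (adjusted p = 0.254), siCtrl replicate 2 (adjusted p = 0.434), siEwsr1 replicate 1 (adjusted p = 0.198) or siEwsr1 replicate 2 (adjusted p = 0.0957) was left out. The log2 fold change lay between -0.52 and -0.36 in all of these settings, and whether the short or the long transcript moved was not tested.

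**Figure D4:**
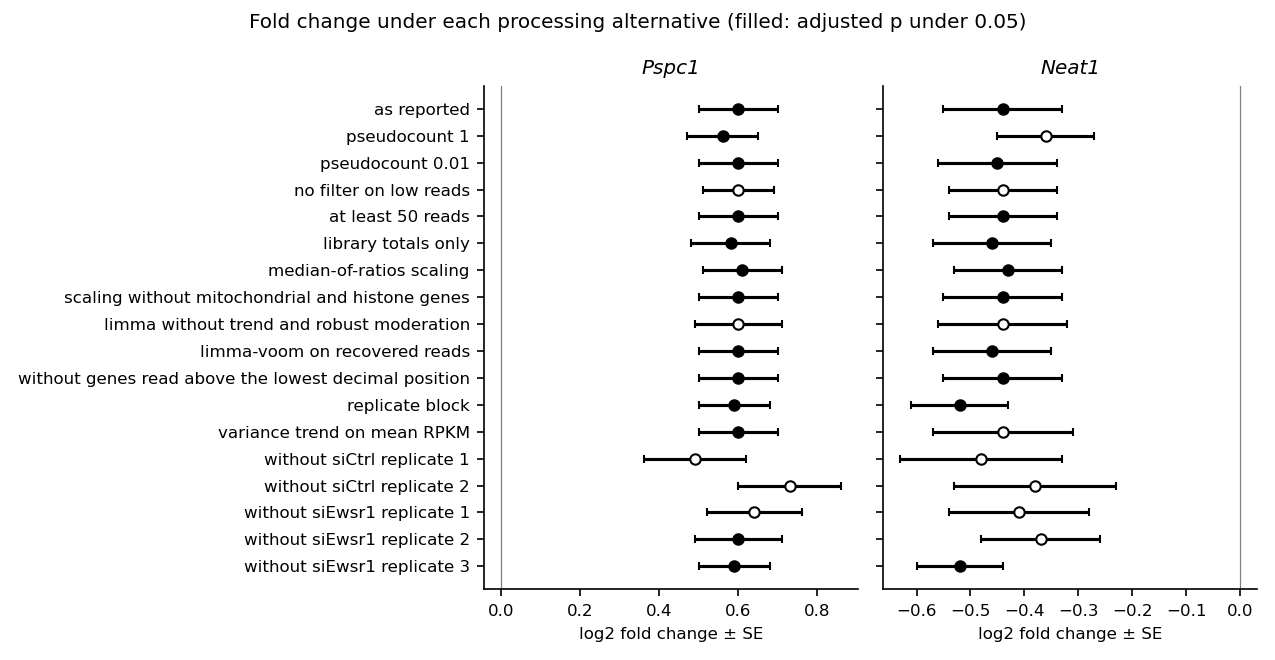
Log2 fold change of Pspc1 and Neat1 with its SE as reported and under 17 alternatives named on the axis. Filled points have an adjusted p under 0.05, which held in 12 alternatives for Pspc1 and 9 for Neat1. The points lie between 0.49 and 0.73 for Pspc1 and between -0.52 and -0.36 for Neat1.

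Malat1 (chromosome 19, 5795690 to 5802672, minus strand) had 257.6 and 217.3 RPKM in siCtrl and 261.7, 257.9 and 245.4 RPKM in siEwsr1. One control was as high as the siEwsr1 libraries, and siCtrl replicate 2, the library with the least mitochondrial ribosomal RNA, was the lowest. The means of 237.4 ± 28.5 RPKM (SD, n = 2) and 255.0 ± 8.54 RPKM (SD, n = 3) gave a log2 fold change of 0.12 (SE 0.10, 95% interval -0.09 to 0.34, adjusted p = 0.499, limma). The log2 ratio of Neat1 to Malat1 was -5.91 and -5.54 in siCtrl and -6.39, -6.46 and -6.06 in siEwsr1. The ratio was lower in every siEwsr1 library, by 0.58 on average (a difference of -0.58, exact permutation p = 0.2, adjusted p = 0.233).

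Among genes next to this pair, Frmd8os, an antisense transcript beside Neat1, held 6 to 25 reads a library and had a log2 value of -0.91 against siCtrl (limma, SE 0.40, adjusted p = 0.215). Gm27702, a small RNA annotated directly 3′ of Neat1, had 1 read in 1 library.

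Mean levels over all 5 libraries ran from Malat1 (248.0 RPKM) and Matr3 (198.4 RPKM) through Nono (98.6 RPKM), Sfpq (59.8 RPKM) and Pspc1 (14.2 RPKM) to Rbm14 (6.61 RPKM) and Neat1 (3.74 RPKM). The ranges of Malat1 and Matr3 overlapped, and those of every other pair of neighbours in this order did not. The place of Matr3 depends on the 4472 bases that its values match, in place of the 10158 bases of GENCODE M21. In siCtrl, Malat1 stood 53.0-fold above Neat1 per length. The length used for Neat1 is the 20771 bases of its long transcript. Its place and this ratio therefore depend on how many reads came from the 3004-base short transcript, which was not tested.

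Across the 5 libraries, the genes whose log2 levels followed Pspc1 most closely, out of 7545 with a mean of at least 5 RPKM, were Plce1 (Pearson r = 0.9979), a phospholipase C gene, Ssrp1 (0.9965), a subunit of the histone chaperone FACT, and Haus8 (0.9964), a subunit of the augmin complex of the spindle. For Neat1 they included Krtcap2 (1.0 to 4 digits), a subunit of oligosaccharyltransferase, and Rhox2c (0.9998). For Malat1 they were Ankmy2 (0.993), Gm25395 (0.992) and Gm26158 (0.992). The points are 5 libraries that share groups and depths, so these values are a description only. An r of at least 0.95 was reached by 190 genes with Pspc1, 324 with Neat1 and 43 with Malat1.

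In the wider set of paraspeckle proteins few genes were called. Of 38 genes for other proteins found in paraspeckles, 36 were tested, 2 rose and 1 fell (8.33%, beside 5.19% of all tested genes), and the median log2 fold change was 0.12, the highest of the 6 lists, beside -0.01 for all tested genes. At an unadjusted p under 0.05 limma gave 13 of 36, beside 22.1% of all tested genes, and limma-voom on the recovered reads called 4, beside 5.48% of all tested genes. Hnrnph1, a splicing regulator that binds G-rich RNA, rose by 0.38 (SE 0.09, adjusted p = 0.0420, limma), with 187.4 and 163.2 RPKM in siCtrl and 228.0, 232.0 and 218.1 RPKM in siEwsr1. Cirbp, the cold-inducible RNA-binding protein, rose by 0.59 (SE 0.14, adjusted p = 0.0402), with 7.65 and 8.92 RPKM in siCtrl and 12.7, 10.5 and 14.3 RPKM in siEwsr1.

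Akap8l, a nuclear protein related to the kinase anchor Akap8, fell by 0.62 (SE 0.11, adjusted p = 0.0125, limma), with 35.7 and 43.1 RPKM in siCtrl and 24.1, 24.1 and 27.6 RPKM in siEwsr1. The groups did not overlap in these 3 genes, which were named because they were called. Ranges did not overlap in 39.9% of all tested genes. The most abundant of the list, Hnrnpa1, had a log2 fold change of 0.33 that did not pass the test (adjusted p = 0.0625), and Hnrnpk, which favours the long over the short Neat1 transcript, had 0.14 (adjusted p = 0.422). Rbm3, a cold-induced protein gene like Cirbp, had 0.01 (adjusted p = 0.952) and Hnrnpf 0.07 (adjusted p = 0.641). Taf15, a paralog of Ewsr1, had 0.28 (adjusted p = 0.162).

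None of the 16 genes for processing and stability of the Neat1 3′ end was called, where 5.19% of all tested genes were. Their log2 fold changes had a median of 0.05 and a range of -0.32 to 0.33. Of 20 genes of Malat1 processing and nuclear retention none was called either, with a median of 0.03 and a range of -0.21 to 0.47. At an unadjusted p under 0.05, limma gave 3 of 16 and 4 of 20, where it gave 22.1% of all tested genes, and limma-voom called 0 in each. Single genes such as Ivns1abp (0.27, adjusted p = 0.130) or Rpp30, a subunit of RNase P (0.13, adjusted p = 0.685), did not pass.

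Of 19 tested genes of the nuclear matrix and of matrin partners, Ddx17 fell and no gene rose, with a median of 0.05. The share called, 5.26%, was near the 5.19% of all tested genes. At an unadjusted p under 0.05 limma gave 5 of 19, beside 22.1% of all tested genes. Ddx17, a DEAD-box RNA helicase, had 38.6 and 39.7 RPKM in siCtrl and 26.1, 28.0 and 29.3 RPKM in siEwsr1. Every siEwsr1 library was lower, by 0.48 on the log2 scale on average (log2 fold change -0.48, limma, SE 0.09, adjusted p = 0.0134). Its paralog Ddx5 was higher in every siEwsr1 library but did not pass the test (0.28, adjusted p = 0.0871). Hnrnpu, also known as scaffold attachment factor A, had 0.23 (adjusted p = 0.180).

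Of 25 tested long noncoding RNAs other than Neat1 and Malat1, 1 rose and none fell, with a median of 0.09. The share called was 4.0%, beside 5.19% of all tested genes. Limma gave 4 of 25 at an unadjusted p under 0.05, beside 22.1% of all tested genes. Tug1, a conserved noncoding RNA, had 10.6 and 10.4 RPKM in siCtrl and 17.15, 17.05 and 14.7 RPKM in siEwsr1. Its controls were nearly equal and siEwsr1 replicate 3 was the lowest of the knockdown libraries, and the log2 fold change was 0.64 (SE 0.10, adjusted p = 0.00908, limma). The abundant host genes of small nucleolar RNAs Gas5 (0.18, adjusted p = 0.381), Snhg1 (0.19, adjusted p = 0.322), Zfas1 (0.09, adjusted p = 0.592) and Snhg5 (0.10, adjusted p = 0.555) did not pass. None of the 9 genes of the Rbm14 family and its coactivator partners was called by limma or limma-voom. Of all tested genes, limma called 5.19% and limma-voom 5.48%. In this list 1 gene had an unadjusted p under 0.05 in limma, beside 22.1% of all tested genes, and the median was -0.10.

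**Figure D5:**
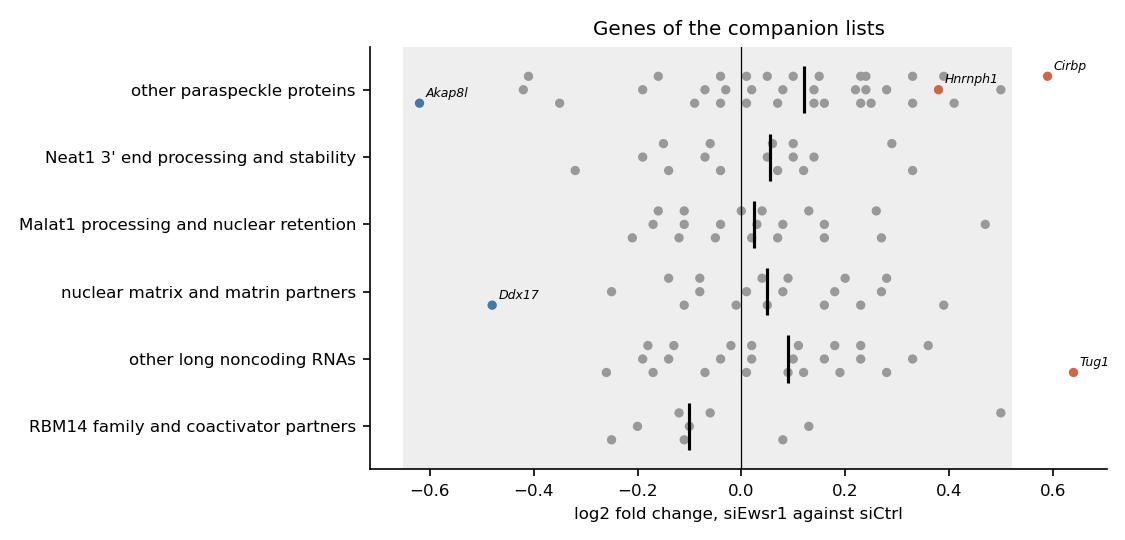
Log2 fold change (siEwsr1 against siCtrl) of each tested gene of the 6 companion lists, a point per gene, with the list's median as a black line and the 5th to 95th percentile of all tested genes (-0.65 to 0.52) in grey. Orange and blue points passed the test as higher (Hnrnph1, Cirbp, Tug1) and lower (Akap8l, Ddx17), and list medians lie between -0.10 and 0.12.

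Over all lists, 5 of 115 distinct genes (4.35%) were called, 3 higher and 2 lower, near the 5.19% of all tested genes. All 5 calls were lost without the read filter and in limma without trend and robust moderation. Those of Hnrnph1 and Cirbp were also lost with the variance trend on mean RPKM and with a pseudocount of 1. The calls of Akap8l, Ddx17 and Tug1 were lost when either control or siEwsr1 replicate 1 was left out, as was that of Cirbp, and Hnrnph1 kept its call in 1 of the 5 fits that leave out a library. Adjusted p-values under the alternatives ran from 2.01e-09 to 0.152 for Tug1 and from 2.27e-04 to 0.437 for Hnrnph1.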

How the data were processed

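The submitters' processing notes name STAR 2.5.2b, featureCounts 1.5.1, edgeR and GRCm38. Annotation release, strand setting and filters: not given in the sources used here. Deposited by the authors was 1 file per library with 54838 gene identifiers and no named unit, recorded here as other than plain RPKM, since values of 1 or more lost their decimal point (12125 to 12445 a library) and smaller values behave as RPKM. Decimals were restored from the fact that RPKM times exonic length (GENCODE M21) and counted reads must be whole. Where several positions gave whole reads, the choice favoured fewer reads and similar levels across libraries (an assumed spread of 0.3 in natural log). In this way 2089 genes, Malat1 and Ewsr1 among them, were read above the lowest such position. Of intact values, 98.5% to 98.6% came out whole within 1e-06 reads, and the recovered reads summed to within 0.0808% of each total. Of 27244 genes above 0, 26643 used the annotated length and 562 a solved one, 39 could not be read, and 79 with odds under 20 were left out.

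Tests used limma 3.58.1 (R 4.3.3) on log2(RPKM + 0.1), which understates changes of low genes, after trimmed-mean scaling (30% of ratios, 5% of levels) on the recovered reads. The fit took genes that reached 10 reads, scaled to the median library, in 2 or more libraries, with robust moderation, a variance trend on mean log2 CPM, and group as the only term. The trend's covariate was chosen after its results and those of a trend on mean RPKM had both been seen. The calls of Neat1, Hnrnph1 and Cirbp depend on it. Ratios and shares used an exact permutation test over libraries. The fit and the restoration were tested on simulated data. The simulated fit gave all genes the same spread beyond counting. The restoration test used only genes read with the annotated length, so it does not cover solved lengths such as that of Matr3. Intervals for counting cover counting error only.

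The 7 genes and all lists were chosen with earlier results of these data known. Named are these genes, Ewsr1, their annotated neighbours, list genes that were called or among the 4 most abundant others, and the 3 genes most correlated with Pspc1, Neat1 and Malat1. Taf15 is added as a paralog of Ewsr1. A few genes that this rule names are not reported here. Ranges called overlapping compare the lowest and highest library of each group.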

Additional observations from a re-analysis of the deposited data

How the results depend on the processing

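Under 17 alternatives the log2 fold change of Pspc1 stayed between 0.49 and 0.73 and that of Neat1 between -0.52 and -0.36. Pspc1 lost its call without the read filter (0.60, adjusted p = 0.0822) and in limma without trend and robust moderation (0.60, adjusted p = 0.103). Neat1 lost its call there (-0.44, adjusted p = 0.164 and 0.169) and with a pseudocount of 1 (-0.36). It was also lost with the variance trend on mean RPKM (-0.44), an alternative added after seeing the data. The reported trend, on mean log2 CPM, was itself chosen after the results of both had been seen. Leaving out 1 library gave 0.49 to 0.73 for Pspc1 and -0.52 to -0.37 for Neat1. All-gene counts were 386 (171 higher, 215 lower) with a pseudocount of 1, 60 (20 and 40) without the filter, 0 (0 and 0) in limma without trend and robust moderation, where 2785 had an unadjusted p under 0.05 and limma-voom called 819, 263 (116 and 147) with the trend on mean RPKM, and 16 to 3759 (12 to 1901 and 4 to 1858) without 1 library, the highest without siEwsr1 replicate 3. In the same order, calls among the 7 genes numbered 1, 0, 0, 1 and 0 to 3, and among the companion genes 3, 0, 0, 3 and 0 to 35. The highest counts, 3 of the 7 genes and 35 of 115 companion genes, came without siEwsr1 replicate 3, where 3759 of 14586 genes were called. Without the filter 27126 genes were tested, and 14935 in the other settings here that kept all libraries. The cause of these differences was not tested.

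Values near 0 changed sign: Sfpq was -0.01 with library totals only and -0.02 to 0.07 without 1 library, Rbm14 was -0.05 with the replicate block and -0.05 to 0.10 without 1 library, and the difference in the share of Nono was -1.42 to 0.274 percentage points without 1 library. Malat1 and Ewsr1 have no value without genes read above the lowest decimal position. Deviations from the group mean correlated at 0.03 and -0.13 between libraries with the same replicate number. With 2 controls the control deviations mirror each other, so these values cannot decide whether the numbers pair libraries. With the replicate block, 3317 of 14935 genes were called (1637 higher, 1680 lower), and 27 of the 115 companion genes, with Pspc1 at 0.59 and Neat1 at -0.52. Depth limits Rbm14 most among the 7 genes, with a counting error of up to 5.27% a library.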
